A study of Rattus norvegicus with 13 samples.

Results

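The subject here is the contrast between 2 classes of histone acetyltransferase (HAT) inhibitor treatments of rat lenses with galactose-induced cataract, the treatments described in the study as reducing opacity and those without such an effect alone. The effective class holds 3 arrays, C646+CPTH2, CBP30+CPTH2 and TH1834, and the ineffective class holds 3 arrays, C646, CBP30 and CPTH2, out of 13 arrays in all. Lenses of 6-week-old male Sprague Dawley rats were cultured in 30 mM galactose until a white opacity formed and then received the inhibitor, so the treatments were tested on cataract already present. The effective treatments were 40 µM C646 with 80 µM CPTH2, CBP30 with 80 µM CPTH2, and 50 µM TH1834, and the ineffective ones were 40 µM C646, 10 µM CBP30 and 80 µM CPTH2, all with lenses in galactose for 6 days by the sample labels. The label of the CBP30+CPTH2 sample names CPTH2 2 times, so its CBP30 dose was not read from it. The remaining arrays were 3 of galactose Day 6, 3 of galactose Day 4 and 1 control without galactose, cultured for 4 days. The study also gives CPTH2 alone a weak effect, and the classes are therefore not sharply divided by opacity, which was not analysed here.

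HATs place acetyl groups on histones and other proteins, which loosens chromatin and favors transcription. TH1834 is aimed at Tip60 (gene Kat5), CPTH2 at Gcn5 (gene Kat2a), C646 at the catalytic site of p300 and CBP (genes Ep300 and Crebbp), and CBP30 at the bromodomain of CBP and p300, which reads acetyl marks. The lens consists of an anterior epithelium and a mass of fibre cells filled with crystallins. In galactose, fibre cells accumulate galactitol and swell, and epithelial cells can take on contractile, mesenchymal features with more actin fibers.

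Lens RNA was read with GeneChip Rat Gene 2.0 ST arrays, and the values are the deposited log2 signals. Of 18166 genes with a probe set not shared with another gene, 6395 reached a log2 signal of 5 in at least 1 of the 6 inhibitor arrays and were compared. Median signals over these genes were 5.82 to 5.97 in the effective arrays and 5.87 to 5.98 in the ineffective arrays. Each treatment had 1 array, so the 3 arrays of a class are different treatments and not replicates. The labels do not say whether they came from separate animals. The study describes giving inhibitor to 1 lens of each pair and vehicle alone to the other. By that design the inhibitor lenses came from different animals, and any spread given here mixes treatment, animal, lens and array. The number of arrays limits the precision, and an exact two-sided permutation test of 3 arrays against 3 cannot give a p below 0.1. CPTH2 was present in 2 of the 3 effective arrays and in 1 of the 3 ineffective arrays, and TH1834 in the effective class only, so the class and the compound cannot be told apart.

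The lens markers were present and the markers of neighboring tissues were mostly under the minimum. A total of 11 crystallin genes, 14 lens fibre genes and 12 lens epithelium genes were kept. No marker of photoreceptors, vascular endothelium, corneal epithelium, smooth muscle or red blood cells was kept, while 1 of 13 immune cell markers (Cd68), 1 of 8 pigment epithelium markers (Trpm1) and 2 of 5 skeletal muscle markers (Ckm and Acta1) were. In a whole lens, fewer cells of a type and less RNA per cell cannot be told apart. The effective class held the extremes of the epithelial signal. The 12 lens epithelium genes had mean log2 signals of 5.30 in C646+CPTH2, 6.26 in CBP30+CPTH2 and 6.86 in TH1834, against 6.54 in C646, 6.35 in CBP30 and 6.14 in CPTH2. Of the 6 inhibitor arrays, C646+CPTH2 was the lowest for 10 of the 12 genes and TH1834 the highest for 10. Cdh1, the epithelial adhesion protein E-cadherin, was at 5.25, 7.42 and 8.21 in C646+CPTH2, CBP30+CPTH2 and TH1834, against 8.20, 7.94 and 7.70 in C646, CBP30 and CPTH2, so C646+CPTH2 stood apart while the classes overlapped.

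The effective arrays did not resemble each other more than they resembled the ineffective ones. The root mean square log2 difference over the 6395 genes was 0.499 to 0.609 between effective arrays and 0.312 to 0.517 between ineffective arrays, against 0.373 to 0.598 across the classes. Every effective array had its nearest neighbor in the other class. C646+CPTH2 was nearest to CPTH2 (0.435), CBP30+CPTH2 to CBP30 (0.455) and TH1834 to C646 (0.373), so each combination lay nearest to one of its own components. From the mean of the galactose Day 6 arrays, the distances were 0.512 for C646+CPTH2, 0.499 for CBP30+CPTH2 and 0.444 for TH1834, against 0.313 for C646, 0.454 for CBP30 and 0.421 for CPTH2. Pairs of galactose arrays of the same day differed by 0.285 to 0.451. The median SD over genes was 0.263 among effective arrays and 0.219 among ineffective arrays.

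**Figure D1:**
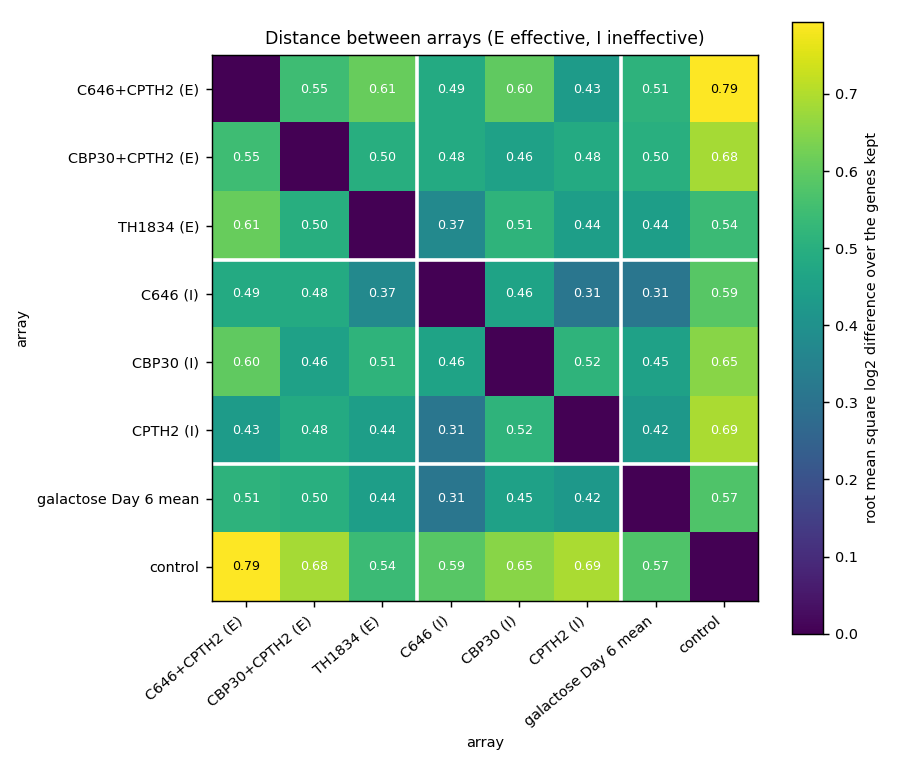
Root mean square log2 difference between pairs of inhibitor arrays, the galactose Day 6 mean and the control, over the genes kept. White lines part the effective arrays, the ineffective arrays and the arrays without inhibitor, and the block of effective arrays (0.499 to 0.609) is no closer than the block across the classes (0.373 to 0.598).

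To find genes whose arrays do not overlap between the classes, a gene was said to separate the classes when its 3 effective arrays all lay above, or all below, its 3 ineffective arrays. In all, 459 genes separated the classes, 7.18% of those compared. Of these, 180 were higher in the effective treatments (2.81%) and 279 were lower (4.36%). A separating gene reaches only the exact two-sided permutation p of 0.1, the lowest that 3 arrays against 3 allow, so separation is a description and not a call. The direction of the split between higher and lower depended on the scaling: with quantile normalization 278 were higher and 247 lower, and with median centring 286 were higher and 266 lower. The gap, the log2 distance between the nearest arrays of the 2 classes, was mostly small, with a median of 0.07 in both directions. No gene had a gap of 1 or more. A gap of 0.5 or more was found for 6 genes, all lower in the effective treatments (0.0938%), and the widest gap among the higher genes was 0.39.

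No gene was called between the classes. A limma fit of the 6 arrays gave 0 calls among 6395 genes (0%), and the lowest adjusted p from limma was 0.998. An unadjusted p under 0.05 was reached by 166 genes (2.6%). A test from each gene's own spread also made 0 calls (212 under 0.05 before adjustment), as did 1 fit over all 13 arrays (282). In simulated tables of 3 against 3 arrays, limma found 44.8% of changes of a log2 of 1 and 95.7% of changes of a log2 of 2. The simulated arrays were drawn independently. Here compounds are shared across the classes and each effective array was nearest to an ineffective one, so these shares need not hold for these data. The genes below are therefore described by their values and by whether the arrays overlap, and none of their differences passed the test.

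The gene with the widest separation was Stmn4, a stathmin that destabilizes microtubules and is best known from neurons. Its log2 signal was 4.59 in C646+CPTH2, 4.28 in CBP30+CPTH2 and 4.91 in TH1834, against 5.76 in C646, 5.69 in CBP30 and 5.60 in CPTH2. The ineffective arrays lay close to the galactose Day 6 lenses (5.76 ± 0.59, SD, n = 3), and the effective arrays lay between these and the control lens (3.09), although all 3 were under the minimum of 5 and need not be above background. The difference was -1.09 (standard error 0.21) with a gap of 0.69.

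A3galt2, which encodes an alpha-1,3-galactosyltransferase of glycolipid synthesis, was at 6.26 in C646+CPTH2, 6.04 in CBP30+CPTH2 and 6.02 in TH1834, against 7.07 in C646, 6.94 in CBP30 and 7.45 in CPTH2. The effective arrays were uniform (6.11 ± 0.13, SD, n = 3) and under all galactose Day 6 arrays (7.60 ± 0.23, SD, n = 3), and the control was at 5.24. The difference was -1.05 (standard error 0.20) and the gap was 0.68.

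Tgif1, a homeobox corepressor that restrains TGF-beta signals through Smad proteins, was at 5.69, 5.70 and 5.89 in C646+CPTH2, CBP30+CPTH2 and TH1834, against 6.80, 6.44 and 6.64 in C646, CBP30 and CPTH2. The effective arrays lay nearer to the control (5.33) and the ineffective arrays nearer to galactose Day 6 (6.76 ± 0.42, SD, n = 3). Usp2, a deubiquitinating enzyme, was at 5.71, 5.99 and 5.96 in C646+CPTH2, CBP30+CPTH2 and TH1834, against 6.55, 6.54 and 6.70 in C646, CBP30 and CPTH2, with the same gap of 0.54 as Tgif1. Here the effective mean of 5.89 equalled the control value of 5.89 to the second decimal, and galactose Day 6 lay at 6.41 ± 0.18 (SD, n = 3).

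Lgals3bp, a secreted glycoprotein that binds galectins, also had a gap of 0.54 but no such relation to galactose. It was at 4.86, 5.35 and 5.63 in C646+CPTH2, CBP30+CPTH2 and TH1834, against 6.18, 6.42 and 6.40 in C646, CBP30 and CPTH2, while galactose Day 6 was at 5.62 ± 0.55 (SD, n = 3) and the control at 6.23. The effective arrays were therefore low against the ineffective ones but not against galactose alone.

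Among genes at 5 or more in all ineffective arrays, the other 7 of the 12 widest gaps on the lower side were 0.39 to 0.47. Flot1, a scaffold protein of membrane microdomains, was at 5.79, 5.86 and 5.75 in C646+CPTH2, CBP30+CPTH2 and TH1834, against 6.34, 6.38 and 6.36 in C646, CBP30 and CPTH2. Both classes were narrow, and the control (6.66) was higher than either. Pdlim7, a PDZ and LIM domain protein of actin fibers, was at 6.13, 5.99 and 6.42 in C646+CPTH2, CBP30+CPTH2 and TH1834, against 7.01, 6.92 and 6.82 in C646, CBP30 and CPTH2. The galactose Day 6 mean of 6.50 lay between the classes. Wdr46, a nucleolar protein of ribosome formation, averaged 5.56 ± 0.11 in the effective arrays and 6.14 ± 0.02 in the ineffective arrays (SD, n = 3 each), and both were above galactose Day 6 at 5.22. The rest were Efs, an adaptor of Src kinases, with a difference of -0.74, Mfsd10, a membrane transporter, at -0.73, Gbp2, an interferon-inducible GTPase, at -0.53, and Spr, the last enzyme of tetrahydrobiopterin synthesis, at -0.53. In Efs, Gbp2 and Spr the effective arrays were under 5.

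The genes higher in the effective treatments differed by less. Trappc8, a subunit of a vesicle tethering complex used in Golgi traffic and autophagy, had the widest gap, 0.39. It was at 5.63, 5.84 and 5.56 in C646+CPTH2, CBP30+CPTH2 and TH1834, against 5.13, 5.17 and 5.13 in C646, CBP30 and CPTH2, and the ineffective arrays were at the level of galactose Day 6 (5.08 ± 0.15, SD, n = 3) and the control (5.16). Rb1cc1, the autophagy initiation factor FIP200, was at 7.16 in all 3 effective arrays, against 6.68 in C646, 6.68 in CBP30 and 6.85 in CPTH2. Its control value was 7.06 and its galactose Day 6 mean 6.13 ± 0.24 (SD, n = 3), so the effective arrays were the nearer ones to the control.

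Tmf1, a coiled-coil protein of the Golgi, was at 6.42, 6.87 and 6.42 in C646+CPTH2, CBP30+CPTH2 and TH1834, against 5.97, 5.97 and 6.07 in C646, CBP30 and CPTH2. The control was at 6.49 and galactose Day 6 at 5.62 ± 0.09 (SD, n = 3). Eif5b, which joins the ribosomal subunits at the start of translation, was at 9.41, 9.48 and 9.22 in C646+CPTH2, CBP30+CPTH2 and TH1834, against 8.93, 8.96 and 8.90 in C646, CBP30 and CPTH2, with the control at 9.38 and galactose Day 6 at 8.58 ± 0.07 (SD, n = 3). Pi4k2b, a phosphatidylinositol kinase, and Dnaja1, a co-chaperone of Hsp70, had the same order, with effective means of 5.77 for Pi4k2b and 8.35 for Dnaja1, against ineffective means of 5.41 for Pi4k2b and 7.89 for Dnaja1, and control values of 5.79 and 8.48. In these 4 genes the effective mean lay nearer to the control than the ineffective mean did.

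Mat2b, the regulatory subunit of an enzyme that makes S-adenosylmethionine, differed by 0.50, Abhd5, an activator of triglyceride breakdown, by 0.56, and Extl3, a glycosyltransferase of heparan sulfate synthesis, by 0.70. Sltm, a nuclear RNA-binding protein, differed by 0.48 and Calr4, a relative of the chaperone calreticulin, by 0.39. In all 5 genes the effective means were above both the galactose Day 6 mean and the control. For the first 12 genes on the higher side, the effective arrays lay above all 3 galactose Day 6 arrays in 11, and Mir483 was the exception.

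**Figure D2:**
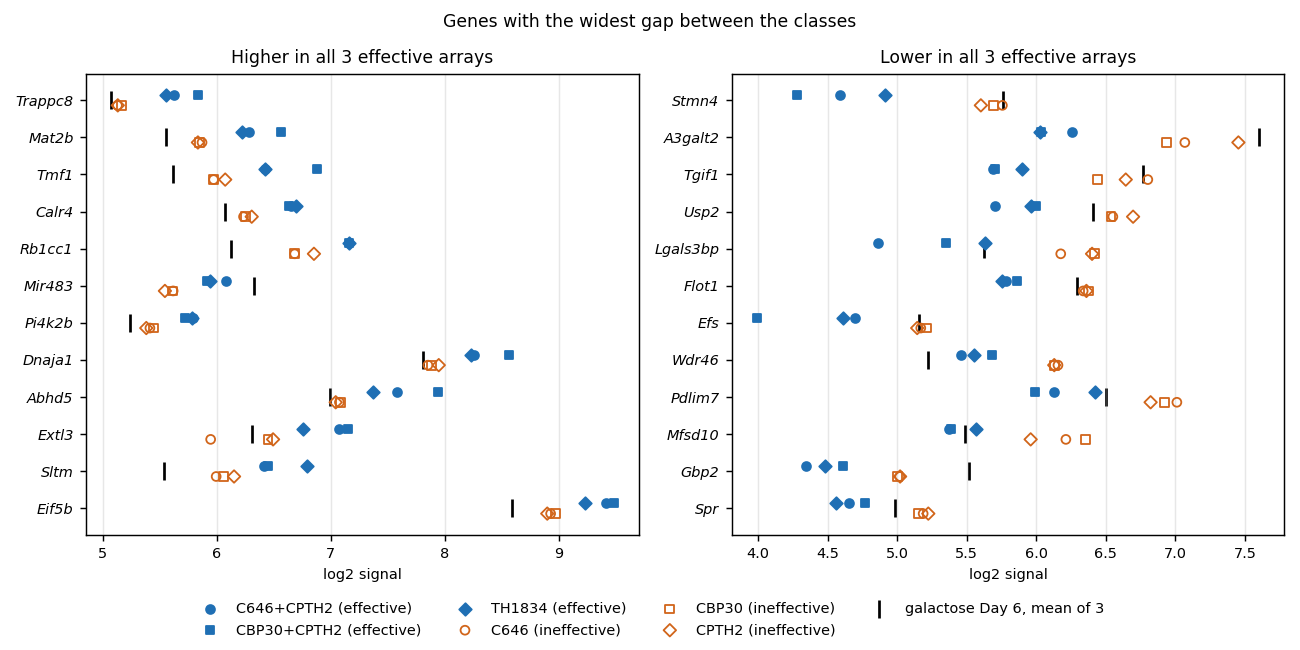
Log2 signal (x axis) in each inhibitor array for the 12 genes with the widest gap in each direction, with filled blue symbols for effective and open orange symbols for ineffective arrays and a black bar for the galactose Day 6 mean. Stmn4 and A3galt2 show the widest gaps (0.69 and 0.68), and the bar lies beside the ineffective arrays for Stmn4, Flot1 and Trappc8 but not for Lgals3bp or Wdr46.

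Among 20 miRNA genes kept, 4 separated the classes, where 7.18% of all genes did, and are named here although 3 of them lie outside the rule for naming genes. Mir483, Mir22 and Mir138-2 were higher in the effective treatments and Mir185 was lower. Mir22 was at 5.56, 6.25 and 5.57 in C646+CPTH2, CBP30+CPTH2 and TH1834, against 5.34, 5.24 and 5.34 in C646, CBP30 and CPTH2, with CBP30+CPTH2 above the other 5 arrays. Mir483 was at 6.08, 5.92 and 5.94 in C646+CPTH2, CBP30+CPTH2 and TH1834, against 5.62, 5.61 and 5.55 in C646, CBP30 and CPTH2. The differences were 0.21 for Mir138-2 and -0.09 for Mir185. The array labels RNA of genes and precursors, so these values do not measure the mature miRNA. The mature strands of the 2 genes with the widest gaps are given, from RefSeq on GRCr8, with the seed (bases 2 to 8) in capitals.
rno-miR-22-3p: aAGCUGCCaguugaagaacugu
rno-miR-22-5p: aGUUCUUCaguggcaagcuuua
rno-miR-483-3p: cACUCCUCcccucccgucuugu
rno-miR-483-5p: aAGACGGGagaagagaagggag
The 4 seeds differ from each other.

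The separating genes were then set against the difference between galactose Day 6 and the control, to ask on which side of it the effective treatments lay. Of 22 separating genes that were higher by a log2 of 1 or more in galactose Day 6 than in the control, 19 were lower in the effective treatments. Of 6 that were lower with galactose by that amount, 4 were higher in the effective treatments. In all, 23 of 28 (82.1%) lay towards the control. The majority was lost without the TH1834 array, where 37 of 101 (36.6%) lay towards the control, and with CPTH2 alone moved to the effective class, where 19 of 38 (50%) did. Without any other 1 array the share was 63.3% (without CPTH2) to 88.5%. Over all 6395 genes the share was smaller, 263 of 461 (57%), and with galactose Day 4 in place of Day 6 it was 24 of 27 (88.9%) among separating genes and 241 of 382 (63.1%) among all genes. The control was 1 array, so its own spread is not known. It was cultured for 4 days, so the Day 6 difference holds a longer culture as well as galactose.

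Among the 19, besides Stmn4, A3galt2 and Tgif1, were Tubb3, a neuronal beta-tubulin, and Vcl, the focal adhesion protein vinculin. Tubb3 was at 5.41, 4.80 and 5.75 in C646+CPTH2, CBP30+CPTH2 and TH1834, against 6.17, 6.22 and 6.07 in C646, CBP30 and CPTH2, with the control at 4.16. Vcl was at 6.12, 6.35 and 5.64 in C646+CPTH2, CBP30+CPTH2 and TH1834, against 6.87, 6.57 and 7.02 in C646, CBP30 and CPTH2, with the control at 5.52. Icam1, a leukocyte adhesion molecule, was at 5.29, 4.80 and 5.33 in C646+CPTH2, CBP30+CPTH2 and TH1834, against 5.39, 5.99 and 6.06 in C646, CBP30 and CPTH2, so that the gap was only 0.07. Tmem140, a transmembrane protein with a galactose difference of 4.34, was at 9.13, 7.36 and 8.65 in C646+CPTH2, CBP30+CPTH2 and TH1834, against 9.15, 9.35 and 9.68 in C646, CBP30 and CPTH2, with a gap of 0.02. Its effective arrays spread more widely than the classes differed.

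The 4 genes low with galactose and higher in the effective treatments, named after their values were seen, were Usp12, a deubiquitinating enzyme, Papola, the poly(A) polymerase, Prkca, protein kinase C alpha, and Sgtb, a co-chaperone. Usp12 was at 5.90, 6.40 and 5.77 in C646+CPTH2, CBP30+CPTH2 and TH1834, against 5.58, 5.13 and 5.57 in C646, CBP30 and CPTH2, all above the galactose Day 6 mean of 4.60, and only the effective arrays lay above the control of 5.74. The other 3 differed by 0.25 to 0.32. The 5 exceptions were Sdcbp, the scaffold protein syntenin, Msn, the membrane linker moesin, and Atp6v1b2, a subunit of the vacuolar proton pump, which were high with galactose and higher again in the effective treatments, and Thrsp and Rph3al, which were low with galactose and lower again.

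The effective arrays also lay apart from galactose alone for a part of these genes. Of the 180 genes higher in the effective treatments, 124 (68.9%) were also above all 3 galactose Day 6 arrays, where 15.2% of all genes had the effective arrays above them. Of the 279 lower genes, 76 (27.2%) were also under all 3 galactose Day 6 arrays, where 5.52% of all genes were. Set against the 6 galactose arrays of both days together with the ineffective arrays, 104 genes stayed higher and 57 lower. These comparisons use the same effective arrays that chose the genes. Shares above those of all genes follow in part from that choice, and they are descriptions only.

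**Figure D3:**
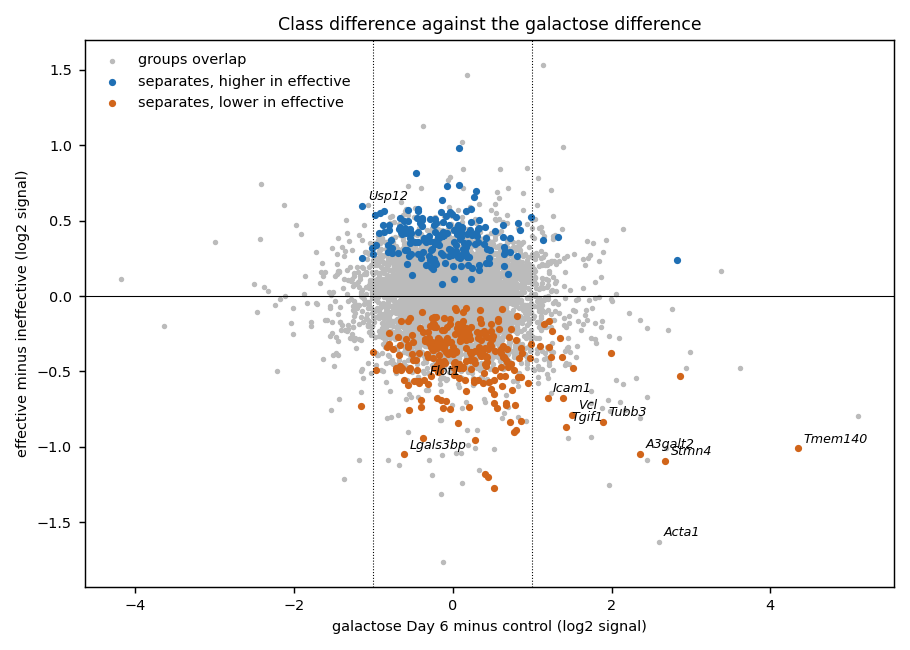
Difference between effective and ineffective arrays (y axis, log2) against the difference between galactose Day 6 and the control (x axis, log2) for each gene kept, with dotted lines at a galactose difference of 1. Of the 22 separating genes to the right of the right-hand line, 19 lie under 0, while Acta1 has a difference of -1.63 without separating the classes.

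All 16 genes kept of the actin cytoskeleton list had a negative difference, with a median of -0.54, where the median of all genes was -0.01 and 3268 of 6395 were negative. Of the 16, 4 separated the classes, all lower, where 4.36% of all genes did. These were Vcl, Pdlim7, the focal adhesion protein Zyx (difference -0.28) and Srf, the transcription factor of actin genes (-0.39). The other 12 had overlapping classes. The mean log2 signal of the list was 6.27, 5.94 and 6.24 in C646+CPTH2, CBP30+CPTH2 and TH1834, against 7.02, 6.30 and 7.10 in C646, CBP30 and CPTH2. The classes did not overlap, but CBP30 alone lay just above C646+CPTH2. All 16 differences stayed negative without any 1 of the 6 arrays, and the median was -0.46 to -0.74. With CPTH2 alone moved to the effective class, 14 of 16 were negative with a median of -0.29. Several members of this list were picked by the study on these arrays, which makes it no independent evidence of direction.

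The largest differences of this list did not separate the classes. Acta1, skeletal muscle actin, was at 6.08, 3.96 and 4.74 in C646+CPTH2, CBP30+CPTH2 and TH1834, against 7.07, 4.81 and 7.79 in C646, CBP30 and CPTH2. Tagln, the actin-binding protein transgelin, was at 6.80, 4.81 and 6.75 in C646+CPTH2, CBP30+CPTH2 and TH1834, against 8.14, 4.99 and 8.26 in C646, CBP30 and CPTH2. In both genes CBP30 alone was among the low arrays, at a level below galactose Day 6 (6.92 for Acta1 and 8.28 for Tagln). Both arrays with CBP30 were low in these genes, with or without CPTH2. Tagln2, a relative of transgelin, was at 4.56, 4.46 and 6.37 in C646+CPTH2, CBP30+CPTH2 and TH1834, against 6.24, 6.07 and 6.19 in C646, CBP30 and CPTH2, and here TH1834 was the highest of the 6.

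Of 9 tubulins and stathmins kept, 8 had a negative difference, and Stmn4, Tubb3, Tuba1b and Tubb5 separated the classes, all lower, where 4.36% of all genes did. Stmn4 was kept only through the ineffective arrays. Tuba1b, an alpha-tubulin of most cells, averaged 7.24 ± 0.25 in the effective arrays and 7.86 ± 0.22 in the ineffective arrays (SD, n = 3 each), and Tubb5 10.16 ± 0.16 in the effective arrays and 10.67 ± 0.11 in the ineffective arrays. Tuba1c did not follow, with 9.78, 8.45 and 6.88 in C646+CPTH2, CBP30+CPTH2 and TH1834, against 8.63, 8.58 and 8.75 in C646, CBP30 and CPTH2, so its effective arrays lay on both sides of the ineffective ones. Tubulin genes are close in sequence, and probes could be shared between them.

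The other lists are given by their counts, to be read beside the 2.81% of all genes that separated as higher and the 4.36% that separated as lower. All 10 inflammatory genes kept were negative (median -0.36), and Icam1 and Relb, a subunit of NF-kappaB, separated the classes. Of 8 YAP and TEAD target genes, 7 were negative and Ajuba (-0.43) and Amotl2 (-0.24), which act in Hippo signalling, separated. Of 9 genes of TGF-beta, activin and BMP signals, 7 were negative and Tgif1, Bmp6 (-0.83), a BMP ligand, and Smad6 (-0.18), an inhibitory Smad, separated. Of 15 genes of cholesterol synthesis, Nsdhl, Tm7sf2 and the regulator Srebf2 separated, all lower, with a list median of -0.17. Bmp6, Nsdhl and Amotl2 reached a log2 signal of 5 only in CPTH2 alone, and Relb only in CBP30 and CPTH2. These genes were thus kept only through the class where they were higher, and their counts are descriptions only. Among other lists, 2 of 14 p53 targets and Gadd45 genes (Ccng1 and Gadd45b), 2 of 16 immediate early genes (Jun and Ier2), 1 of 28 proteasome genes (Psmd1) and 1 of 24 splicing factors (Srsf4) separated, all higher, and the last 2 of these shares lie near that of all genes. The p53 list had 11 positive differences among 14, with a median of 0.28. Among 11 heat shock chaperones, Dnaja1 and Hspa4 separated as higher and Hsp90ab1 as lower. The gaps of Gadd45b (0.06), Jun (0.07), Ier2 (0.05), Relb (0.07) and Hsp90ab1 (0.01) were small beside the median SD within a class (0.263 effective, 0.219 ineffective). Ccng1 had a gap of only 1.26e-05, the smallest on the higher side, and was at 11.68 in both C646+CPTH2 and CBP30.

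**Figure D4:**
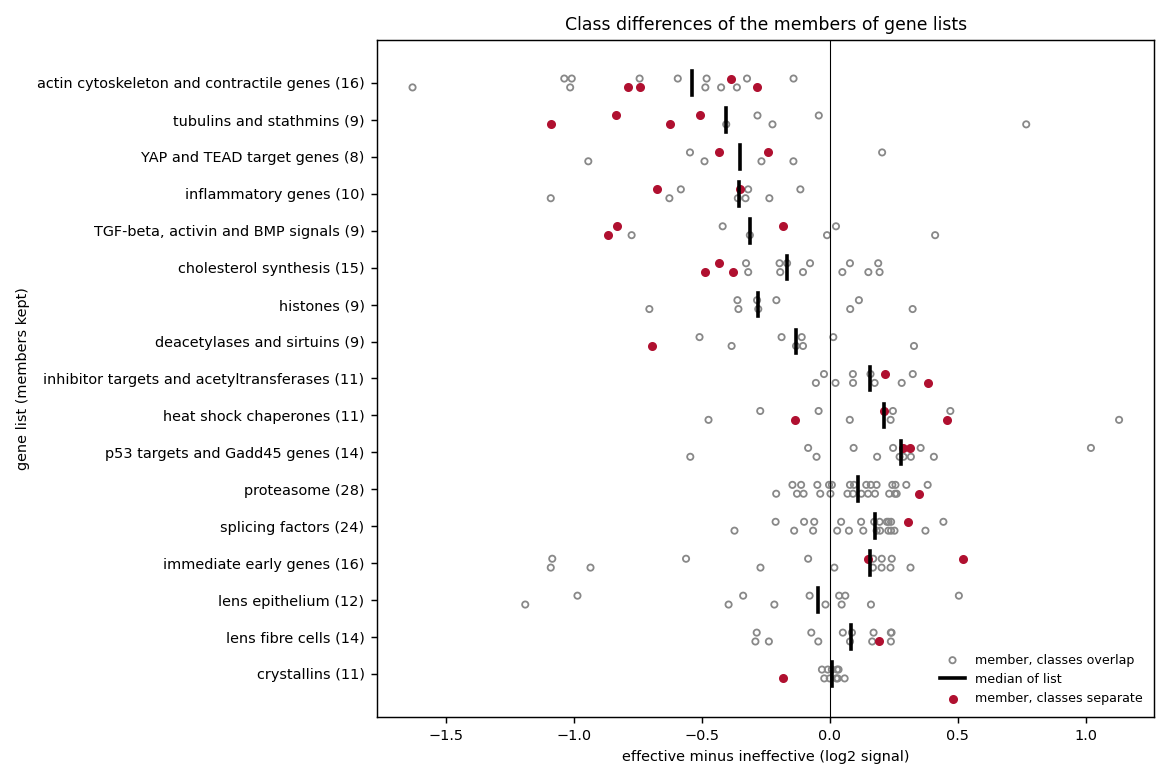
Effective minus ineffective log2 signal (x axis) of each gene kept in 17 gene lists, with red points for genes that separate the classes, open points for genes whose classes overlap and a black bar at the list's median. All 16 actin genes lie left of 0, with a median of -0.54, and the crystallins lie close to 0, with a median of 0.01.

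The enzymes that the inhibitors are aimed at differed little in RNA. Kat5 was at 5.61, 5.61 and 5.26 in C646+CPTH2, CBP30+CPTH2 and TH1834, against 5.55, 5.48 and 5.62 in C646, CBP30 and CPTH2, and Kat2a at 5.66, 5.33 and 5.14 in C646+CPTH2, CBP30+CPTH2 and TH1834, against 5.33, 5.27 and 5.46 in C646, CBP30 and CPTH2. The differences were -0.05 (standard error 0.18) for Kat5, 0.02 (standard error 0.20) for Kat2a and 0.28 (standard error 0.21) for Crebbp, whose classes overlapped. Ep300 was not analysed here. Of 11 acetyltransferase genes kept, Kat6a (0.38) and Nat10 (0.22), an RNA acetyltransferase, separated as higher, where 2.81% of all genes did. Their gaps were 0.03 or less. Nat10 reached a log2 signal of 5 only in C646+CPTH2 (5.14) and CBP30+CPTH2 (5.12), so it was kept only through the effective class. Of 9 deacetylases and sirtuins, Sirt6, a deacetylase of histone H3, separated as lower (-0.69), where 4.36% of all genes did. Sirt6 was at 6.23, 5.93 and 6.59 in C646+CPTH2, CBP30+CPTH2 and TH1834, against 6.73, 7.38 and 6.71 in C646, CBP30 and CPTH2.

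The crystallin and lens fibre genes that were kept differed little between the classes in the median. Of 19 crystallin genes listed, 12 had a probe set of their own, and Cryaa, Crybb1, Crybb2 and Crybb3 had none under their names. The 11 crystallin genes had a median difference of 0.01 and only Cryz, the zeta-crystallin quinone oxidoreductase, separated, with a gap of 0.01. Of 14 lens fibre genes, Lgsn, the lens protein lengsin, separated as higher, at 12.18, 12.24 and 12.21 in C646+CPTH2, CBP30+CPTH2 and TH1834, against 12.11, 11.88 and 12.06 in C646, CBP30 and CPTH2. No lens epithelium gene separated the classes, with 5 positive and 7 negative differences among 12. Overlap there was no lack of difference. Cp differed by -1.19 and Cdh1 by -0.99, and Gja1 was at 5.04, 8.50 and 8.66 in C646+CPTH2, CBP30+CPTH2 and TH1834. Galt, the enzyme that converts galactose-1-phosphate, separated, alone of 8 genes listed for galactose and polyol metabolism and osmotic stress, at a difference of -0.40.

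The study chose candidate genes on these arrays and followed them by RT-qPCR. The 17 listed here are those it carried forward as altered by an effective treatment. For each combination, it had set aside further genes that RT-qPCR also showed lowered by a component given alone. The 17 were selected on these arrays and on that RT-qPCR result, so their direction is not independent evidence. Of the 17, 14 were kept here. All 14 had a negative difference, with a median of -0.48. Only 3 separated the classes, all lower, where 4.36% of all genes did. They were Stmn4, Hebp2, a heme-binding protein, and Prtfdc1, a relative of a purine salvage enzyme. Among the effective treatments, the study's RT-qPCR lists Hebp2 as lowered in all 3, and Stmn4 in C646+CPTH2 only. Prtfdc1 is listed for both combinations but not for TH1834. By RT-qPCR in the study, Hebp2 was also lowered by C646, CBP30 and CPTH2 given singly, and Prtfdc1 by C646 given singly. A3galt2, Icam1 and Vcl were likewise lowered there by C646 given singly, and Vcl also by CBP30. Of the effective treatments, A3galt2 and Icam1 are listed there for C646+CPTH2 only, and Vcl for both combinations but not for TH1834. Hebp2 was at 5.07, 4.59 and 4.69 in C646+CPTH2, CBP30+CPTH2 and TH1834, against 5.68, 5.22 and 5.47 in C646, CBP30 and CPTH2, with the control at 4.42. Slc16a6, a monocarboxylate transporter, was at 8.77, 8.08 and 6.00 in C646+CPTH2, CBP30+CPTH2 and TH1834, against 7.88, 8.73 and 8.63 in C646, CBP30 and CPTH2, and thus was low in TH1834 alone. Arrdc3, an arrestin-family protein, was at 7.79, 8.61 and 7.53 in C646+CPTH2, CBP30+CPTH2 and TH1834, against 8.61, 8.68 and 8.07 in C646, CBP30 and CPTH2. The remaining 7 genes of the set (Emd, H2ac21, Pmf1, Ppdpf, Rbm3, Tgfb1i1 and Tuba1c) had overlapping classes and differences of -0.48 to -0.28. The wider list used here holds 68 of the candidates the study extracted. Of its 49 genes kept, 47 had a negative difference and 11 separated the classes, all lower, where 4.36% of all genes did. The study extracted them on these arrays as lowered by an effective treatment. For the combinations, it left out genes altered by a component given alone. A share above that of all genes was therefore built into the choice and is no independent evidence.

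The 2 combinations were also set against their own components, which share the CPTH2 array. C646+CPTH2 was higher than both C646 and CPTH2 by a log2 of 1 or more in 34 genes (0.532% of those compared) and lower than both in 100 genes (1.56%). CBP30+CPTH2 was higher than both CBP30 and CPTH2 in 6 genes (0.0938%) and lower than both in 34 (0.532%). Each comparison is of single arrays and has no replicate check.

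The higher and the lower genes differed in length. Higher genes had a median span of 39.3 kb in the RefSeq annotation (GRCr8) and lower genes 12.3 kb, against 23.7 kb for all genes kept. With the genes in 4 bins of equal size by length, 1.07% were higher and 7.47% lower in the shortest bin (up to 9.79 kb), and in the longest bin (from 54.5 kb) 4.39% were higher and 2.7% lower. The difference in span was present at low, middle and high signal, with medians of 45.1, 46.1 and 34.6 kb for higher genes and 17.04, 11.04 and 11.25 kb for lower genes. Relative to the mean of the 6 arrays, the longest bin deviated by a median of -0.12, 0.15 and 0.03 in C646+CPTH2, CBP30+CPTH2 and TH1834, against -0.07, -0.03 and 0.03 in C646, CBP30 and CPTH2, and the shortest bin by -0.03, -0.11 and 0.03 in C646+CPTH2, CBP30+CPTH2 and TH1834, against 0.08, -0.05 and 0.11 in C646, CBP30 and CPTH2. Within the effective class these values had both signs. The median class difference was -0.09 in the shortest bin and 0.04 in the longest. The median difference between galactose Day 6 and the control ran the other way, 0.08 in the shortest bin and -0.15 in the longest. The part of gene length or RNA quality in the separation, or in the share of genes towards the control, was not tested.

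**Figure D5:**
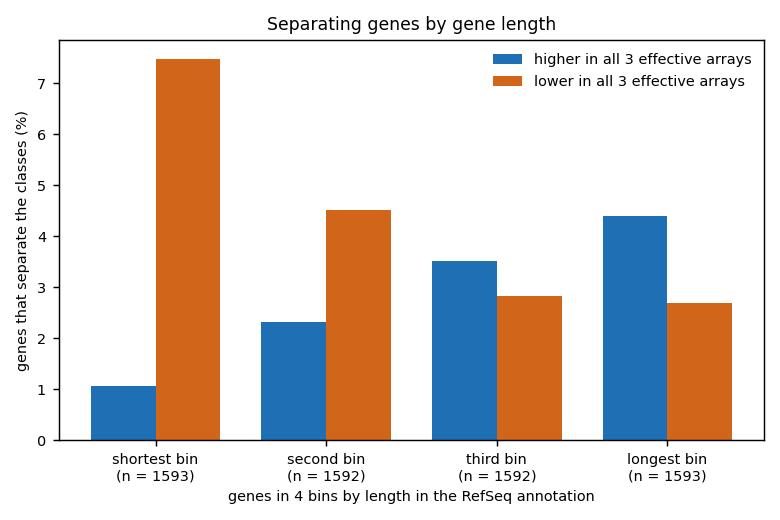
Share of genes (y axis, %) that were higher (blue) or lower (orange) in all 3 effective arrays, in 4 bins of equal size by gene length in the RefSeq annotation (x axis). The share of lower genes is 7.47% in the shortest bin and 2.7% in the longest, and that of higher genes is 1.07% and 4.39%.

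Promoter windows were 300 bases around an annotated start of each gene (250 before to 50 after, from RefSeq), which need not be its outermost start. Median GC content was 64.3% for the 141 higher genes with a promoter in the table, 61% for the 247 lower genes and 62% for all 5378. The motif CCAAT, on either strand, was present in 40.4% of higher genes, 45.3% of lower genes and 38.2% of all genes kept, and GGGCGG, the GC box, in 64.5% of higher genes, 66% of lower genes and 66.5% of all genes kept. Over all 27457 promoters of the table, 37.7% held CCAAT and 34.9% GGGCGG. Among the 5 widest gaps on the lower side and the 3 widest on the higher side, the table matched 3 lower and 3 higher genes, whose windows are printed in that order, with CCAAT and GGGCGG matches on either strand in capitals.
A3galt2, chr5:146385562-146385861, + strand: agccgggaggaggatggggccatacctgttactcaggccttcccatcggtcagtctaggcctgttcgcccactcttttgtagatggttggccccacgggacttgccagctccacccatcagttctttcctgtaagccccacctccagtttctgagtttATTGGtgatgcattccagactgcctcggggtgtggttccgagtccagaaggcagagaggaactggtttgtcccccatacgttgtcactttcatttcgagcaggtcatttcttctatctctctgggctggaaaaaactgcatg
Usp2, chr8:53310620-53310919, + strand: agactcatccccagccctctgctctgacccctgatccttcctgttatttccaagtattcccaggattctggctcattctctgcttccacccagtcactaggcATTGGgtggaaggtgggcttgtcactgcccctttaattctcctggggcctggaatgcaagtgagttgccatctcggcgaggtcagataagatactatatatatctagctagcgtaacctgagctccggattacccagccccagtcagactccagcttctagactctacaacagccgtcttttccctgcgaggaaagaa
Lgals3bp, chr10:104127799-104128098, - strand: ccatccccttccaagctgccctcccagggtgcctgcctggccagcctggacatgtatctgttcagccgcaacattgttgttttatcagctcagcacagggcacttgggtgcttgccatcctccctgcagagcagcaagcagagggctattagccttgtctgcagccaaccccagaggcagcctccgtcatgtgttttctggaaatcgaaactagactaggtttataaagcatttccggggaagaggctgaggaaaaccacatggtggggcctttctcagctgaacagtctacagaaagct
Trappc8, chr18:12454997-12455296, - strand: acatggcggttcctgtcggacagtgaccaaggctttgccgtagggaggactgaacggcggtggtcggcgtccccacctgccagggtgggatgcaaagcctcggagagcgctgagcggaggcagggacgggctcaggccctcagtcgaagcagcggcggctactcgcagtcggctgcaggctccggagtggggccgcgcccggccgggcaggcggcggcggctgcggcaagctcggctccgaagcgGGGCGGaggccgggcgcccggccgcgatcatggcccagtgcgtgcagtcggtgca
Mat2b, chr10:25622720-25623019, - strand: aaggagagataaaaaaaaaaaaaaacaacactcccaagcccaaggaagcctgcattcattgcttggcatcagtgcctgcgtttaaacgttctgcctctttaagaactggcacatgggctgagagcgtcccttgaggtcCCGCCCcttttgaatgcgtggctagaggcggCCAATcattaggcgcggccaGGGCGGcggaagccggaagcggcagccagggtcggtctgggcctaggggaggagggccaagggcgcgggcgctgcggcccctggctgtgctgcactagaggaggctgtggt
Tmf1, chr4:131342265-131342564, - strand: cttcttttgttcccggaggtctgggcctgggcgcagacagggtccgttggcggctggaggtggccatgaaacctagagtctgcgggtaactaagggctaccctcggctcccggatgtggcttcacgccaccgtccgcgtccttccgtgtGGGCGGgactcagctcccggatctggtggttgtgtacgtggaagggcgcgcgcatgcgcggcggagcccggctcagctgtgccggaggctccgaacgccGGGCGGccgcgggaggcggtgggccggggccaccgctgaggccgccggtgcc
Among the lower genes, A3galt2 (53.7% GC, 8 CpG) and Usp2 (51.7% GC, 6 CpG) held CCAAT and no GGGCGG, and Lgals3bp (54% GC, 4 CpG) held neither. Among the higher genes, Trappc8 (73% GC, 36 CpG) and Tmf1 (71% GC, 34 CpG) held GGGCGG and no CCAAT, and Mat2b (59.7% GC, 17 CpG) held both. These 6 windows were chosen by gap and do not stand for all separating genes, whose shares are given above. The windows of Usp2, Mat2b, Tmf1 and Trappc8 lay wholly inside the annotated gene span, so they are not at its outermost start.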

How the data were processed

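Total RNA of cultured rat lenses was hybridized to GeneChip Rat Gene 2.0 ST arrays, 1 array for each inhibitor treatment. Preprocessing was done by the authors in R, and the deposited table held log2 signals of 36685 probe sets. Which background correction and normalization were applied is not given in the sources used here, and the deposited log2 values were used without further scaling. Probe sets with 1 gene symbol were taken (18511, with 575 carrying several symbols and 17599 none), using the one with the highest mean for the 291 genes with several. A log2 signal of 5 in at least 1 of the 6 arrays kept 6395 of 18166 genes and removed 11771, and signals under 5 need not be above background. The members and gene lists were chosen with earlier results of these data known.

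Classes were compared in limma 3.58.1 under R 4.3.3 with a two-sided test (residual df 4, prior df 4.89) and a Benjamini-Hochberg adjusted p under 0.05. The fit was tested on simulated data with independently drawn arrays and 200 changed genes, where 4.63% of calls were false. Counts were made in Python 3.11.15 with pandas 2.3.3 and numpy 2.4.6. Named genes were the 12 widest gaps in each direction among genes at 5 or more in all arrays of the higher class, the RT-qPCR genes of the study, the enzymes aimed at, and list members that separated or had the largest differences. Alternatives were other filters, scalings and fits, CPTH2 counted as effective, and leaving out each array. The arrays' number limits the precision. Ep300 and other genes without a probe set of 1 symbol were not analysed here.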

Additional observations from a re-analysis of the deposited data

Results flagged for a closer look

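Of the 24 genes with the widest gaps, 4 had all effective arrays on one side of the galactose Day 6 mean and all ineffective arrays on the other. These were Usp2 (effective minus ineffective, log2 -0.71), Flot1 (-0.56), Pdlim7 (-0.74) and Spr (-0.53), all lower in the effective treatments. In Usp2, Flot1 and Spr the ineffective arrays overlapped the galactose Day 6 arrays, and lying on a side of their mean is no change from galactose. The difference was not tested. Only genes that separate the classes can have this pattern, and 49 of the 459 (10.7%) did, 8 with higher and 41 with lower effective arrays.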

How the results depend on the processing

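No gene was called by limma under any of 17 settings, the main one included, with 83 to 624 genes at an unadjusted p under 0.05 and a lowest adjusted p of 0.0776, without TH1834. Of 1111 values of 86 named genes under the alternatives, 1102 kept their direction and their side of the threshold. This count was largely fixed in advance and does not measure robustness. A gene that separates the classes cannot change sign when 1 array is left out, and no gene was called under any setting. The number of separating genes was 1355 (666 higher, 689 lower, 35 of those changed by galactose towards the control) without the filter on signal, and 278 genes were higher with quantile normalization and 286 with median centring. It was 728 (513 higher) with CPTH2 alone among the effective treatments. Each array left out loosens the condition, and gave 764 to 1290 separating genes, 241 to 772 higher and 417 to 820 lower, 0 to 8 with a gap of 1 or more, and 33 to 92 genes towards the control, of 40 to 104 that differed with galactose. That share was 36.6% without TH1834 (37 of 101) and 63.3% to 88.5% without another array, against 82.1% with all 6 arrays, and 50% (19 of 38) with CPTH2 alone among the effective treatments. The count was 1290 without TH1834, 1277 without C646+CPTH2, 1208 without CBP30, 1011 without CPTH2, 918 without CBP30+CPTH2 and 764 without C646. With a gap of 0.5 as the minimum, 6 genes passed. With the galactose Day 6 arrays beside the ineffective ones, an alternative chosen after seeing the data, 200 genes separated (76 lower), and with those of Day 4 as well 161 (104 higher, 57 lower). With CPTH2 alone among the effective treatments the list medians were -0.14 for tubulins and stathmins and -0.0373 for YAP and TEAD targets, and with the filter on 3 of the 6 arrays that of inflammatory genes was -0.60. Leaving out 1 array at a time, the median of TGF-beta, activin and BMP signals was -0.5875 to -0.0888. With CPTH2 among the effective treatments the sign turned for H2ac21 (0.46), Tagln (0.0898) and Kat5 (0.0094). Leaving out 1 array at a time, the sign turned for H2ac21 (-0.84 to 0.13, positive without CPTH2), Slc16a6 (-1.37 to 0.0124, positive without TH1834), Tuba1c (-0.99 to 0.46, positive without TH1834), Kat5 (-0.11 to 0.0631, positive without TH1834) and Kat2a (-0.12 to 0.14, negative without C646+CPTH2 or CBP30), and the cause was not tested. All of these differences were uncalled. No paired analysis was possible because the labels give no number that pairs the inhibitor arrays, with each other or with a vehicle lens. Each treatment has 1 array.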
